A study of Homo sapiens with 6 samples.

Results

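The genes that make the histone variant H2A.Z, and the genes of the complexes that place it in chromatin or take it out, were examined in HEK293T cells. The 10 genes were taken from a fixed list and are H2AZ1, H2AZ2, SRCAP, EP400, VPS72, ANP32E, INO80, KAT5, ZNHIT1 and YEATS4. They are 10 of the 19974 protein-coding genes annotated on chromosomes 1 to 22 and X. HEK293T is an established human line of embryonic kidney origin that expresses the large T antigen of SV40. Chromatin immunoprecipitation with sequencing was carried out on unperturbed cells, fixed in 1% formaldehyde for 10 min. The 5 antibody libraries, 1 for each antibody, used H2A.Z antibodies from CST and from Abcam, and antibodies to the variant H3.3, to acetylated lysine 16 of histone H4 (H4K16ac) and to dimethylated lysine 79 of histone H3 (H3K79me2). The lists of enriched regions (peaks) from the H2A.Z antibodies are called H2AZ CST and H2AZ Abcam. An input library completed the series and was not used here.

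H2A.Z replaces the ordinary histone H2A in nucleosomes beside the starts of active genes. It is exchanged as a dimer with H2B by ATP-driven remodelling complexes, of which the SRCAP complex and the TIP60 complex built on EP400 deposit it. The chaperone ANP32E strips it from nucleosomes, and the INO80 complex has also been linked to its removal. H3.3 is the variant placed at active starts and along transcribed genes, KAT8 is the main writer of H4K16ac, and DOT1L places H3K79me2 over the first part of transcribed genes.

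The letters just upstream of the start are shown for H2AZ1 and H2AZ2, which encode near-identical proteins, for SRCAP, which had the strongest peaks of H3.3 and H4K16ac among the members, and for YEATS4, whose peaks in all 5 lists began within 84 bp of the start. Each is written 5′ to 3′ on the strand of the gene and ends just before the annotated gene, with capitals for the motif CCAAT, the motif GGGCGG and the motif TATAAA, on either strand. The sequences are from RefSeq, build GRCh38.p14, at chr4:99950276-99950525 (minus strand), chr7:44848127-44848337 (minus), chr16:30698921-30699170 (plus) and chr12:69359493-69359742 (plus).
H2AZ1: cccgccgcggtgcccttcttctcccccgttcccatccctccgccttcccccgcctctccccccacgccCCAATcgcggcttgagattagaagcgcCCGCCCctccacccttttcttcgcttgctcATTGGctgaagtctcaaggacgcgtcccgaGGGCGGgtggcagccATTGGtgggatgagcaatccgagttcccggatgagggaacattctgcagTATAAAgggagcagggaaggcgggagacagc
H2AZ2: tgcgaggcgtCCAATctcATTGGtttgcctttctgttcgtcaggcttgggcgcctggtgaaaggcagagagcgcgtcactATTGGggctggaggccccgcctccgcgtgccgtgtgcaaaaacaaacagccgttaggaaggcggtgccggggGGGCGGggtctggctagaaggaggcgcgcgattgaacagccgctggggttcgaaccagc
SRCAP: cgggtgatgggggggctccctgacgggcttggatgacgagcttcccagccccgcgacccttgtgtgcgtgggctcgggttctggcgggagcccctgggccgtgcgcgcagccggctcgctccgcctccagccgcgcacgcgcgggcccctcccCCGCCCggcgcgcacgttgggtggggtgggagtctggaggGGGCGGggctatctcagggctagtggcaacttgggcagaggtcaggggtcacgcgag
YEATS4: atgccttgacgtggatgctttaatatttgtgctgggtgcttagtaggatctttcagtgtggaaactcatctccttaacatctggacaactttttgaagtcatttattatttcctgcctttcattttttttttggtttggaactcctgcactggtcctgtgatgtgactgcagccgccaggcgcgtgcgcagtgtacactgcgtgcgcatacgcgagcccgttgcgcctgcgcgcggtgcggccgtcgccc

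The H2AZ1 and H2AZ2 sequences share the CCAAT motif, which occurred 3 times in the window of H2AZ1 and 4 times in that of H2AZ2. These windows ran from 250 bases before to 50 after the start and were found for 8 of the 10 members. VPS72 and ANP32E had no entry. The H2AZ2 match 26 bp before its start lies within the annotated gene and is not among the printed letters. Of all 15812 protein-coding windows, 36.3% held CCAAT, and among the 8 members H2AZ1, H2AZ2 and ZNHIT1 did. The TATAAA motif of H2AZ1 began 31 bp before its start. It occurred in 2 of the 8 windows, the other being that of ZNHIT1, and in 9.64% of all. GGGCGG was found in 6 of the 8 and 58.5% of all, and CCGGAAG in 3 of the 8 (EP400, KAT5 and ZNHIT1) and 14.2% of all. TGACGTCA, held by 2.59% of all windows, and the palindrome bound by NRF1, held by 1.76%, were in none of the 8. YEATS4 held none of the 6 motifs, and the motifs of a window, searched on both strands, did not overlap each other. The window of YEATS4 was 53.7% G and C, that of SRCAP 72%, that of H2AZ1 63% and that of H2AZ2 66.3%, around a median of 62.7%. A motif match describes these letters only.

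H2A.Z lay at the starts of both of its own genes and of the other 8 members, and H3K79me2 marked all 10. Within the gene or 5 kb of it, 10 of 10 members had an H2AZ CST peak, against 79.6% of all protein-coding genes, and 10 had an H2AZ Abcam peak, against 79.7%. H3.3 was found at 9 of 10, against 72.4%, H4K16ac at 9, against 66.9%, and H3K79me2 at 10, against 61.2%. Within 1 kb of the annotated start the counts were again 10, 10, 9, 9 and 10, against 68.3%, 68.8%, 62%, 51.1% and 54.1% of all genes in the same order. For VPS72 and ANP32E, and for 20.8% of the background genes, the tables give no strand, and either end of the gene was accepted. All 5 lists met within 5 kb of 9 members, against 48.6% of all genes, and at the start of the same 9, against 35.4%. VPS72 was the exception. A peak over the gene itself was found at 7 members for H2AZ CST, against 73.4% of all genes, at 9 for H2AZ Abcam, against 74.7%, and at 9 for H3.3, against 66.7%. H4K16ac overlapped 7 of the genes, against 59.8%, and H3K79me2 10, against 57.1%. With a single library per antibody, no replicate spread exists and nothing was tested, and the read depth is unknown.

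**Figure D1:**
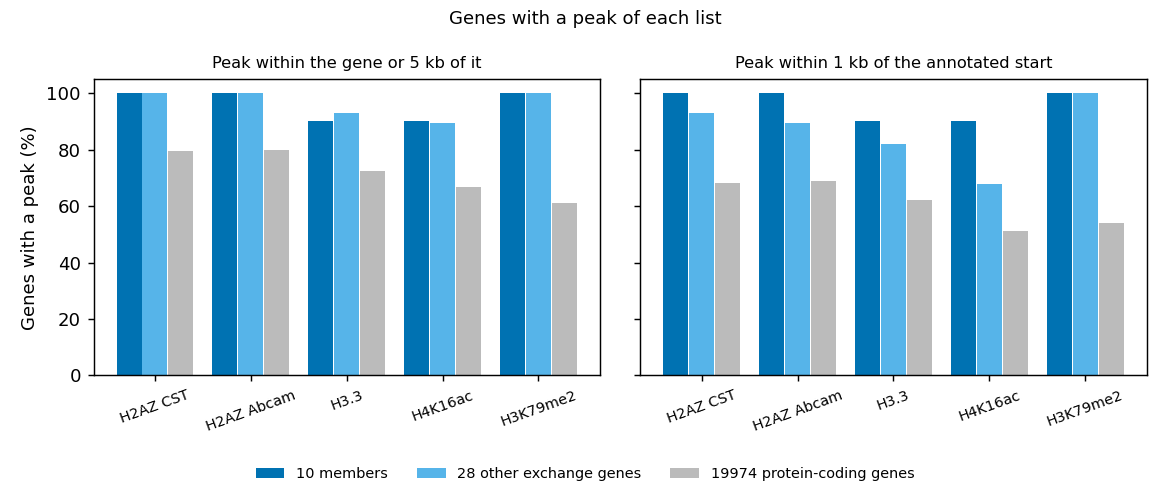
Share of genes (%) with a peak of each list within the gene or 5 kb of it (left) and within 1 kb of the annotated start (right), for the 10 members, 28 other genes of the exchange complexes and all 19974 protein-coding genes. The bars of the members reach 90% or 100% in every list and stand above the grey bars.

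Start peaks varied widely in strength between members, and SRCAP stood above the middle 50% of genes with a start peak in every list. The −log10 q of a peak is the significance that the authors' peak caller gave it after correction for multiple testing, and it ranks peaks within a list only. Among genes with a start peak, the median −log10 q of the strongest was 35.0 in the H2AZ CST list, and 6 of 10 members lay above it. In the other lists the members above the corresponding median numbered 5 (H2AZ Abcam), 6 (H3.3), 4 (H4K16ac) and 7 (H3K79me2). Counting the 10000 strongest peaks of each list left fewer members. Within 5 kb they numbered 6 in the H2AZ CST list, against 45.5% of all genes, 6 in H2AZ Abcam, against 47.4%, and 5 in H3.3, against 35.6%. They numbered 4 in H4K16ac, against 26.6%, and 10 in H3K79me2, against 48.7%. At the start 6, 6, 5, 3 and 10 remained, against 35.8%, 37.7%, 25.9%, 13.6% and 42.1%.

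**Figure D2:**
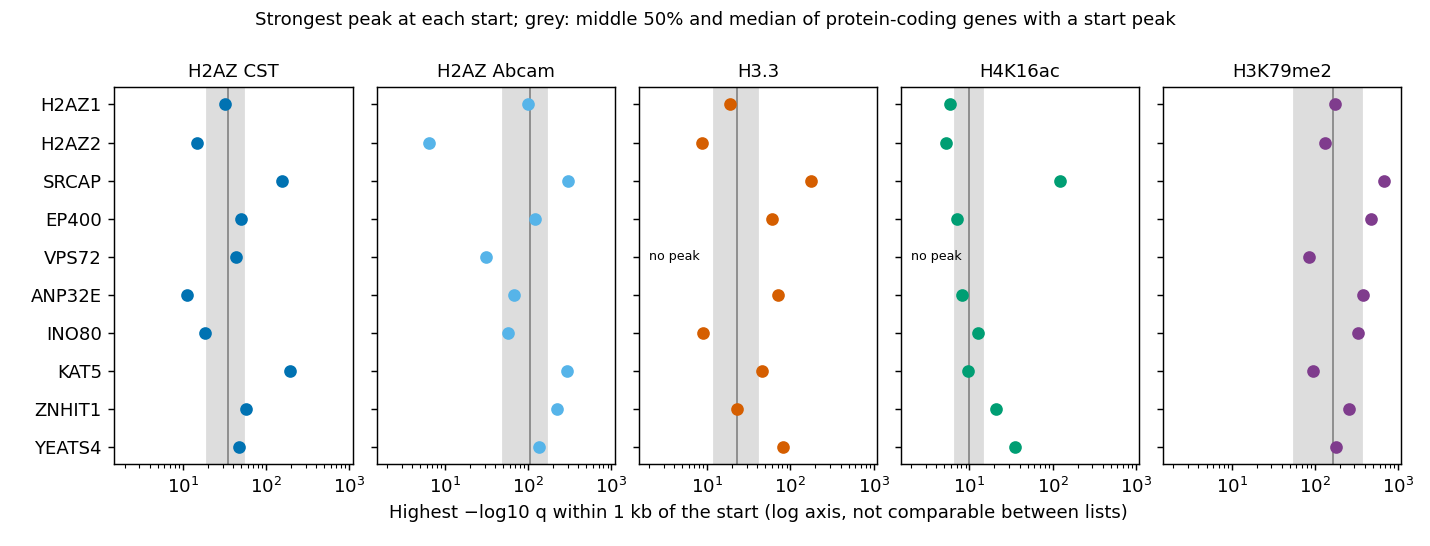
Highest −log10 q (log axis) within 1 kb of the start of each member, 1 panel per list, with the median (line) and middle 50% (grey) of protein-coding genes that have such a peak. SRCAP lies to the right of the grey band in all 5 panels, and KAT5 and ZNHIT1 do in both H2AZ panels. H2AZ2 lies to the left of the band in every panel but H3K79me2.

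The variant genes themselves carried H2A.Z beside the start and not over the gene in the CST list. H2AZ1 (chromosome 4, 99948088 to 99950275, minus strand) is 2188 bp long and starts 219 bp from the start of the divergent long non-coding RNA gene H2AZ1-DT. In the H2A.Z lists its start peaks had a −log10 q of 31.7 (CST) and 101 (Abcam). H3.3 reached 19.0 there, H4K16ac 5.88 and H3K79me2 177. The H2A.Z summits lay 437 bp (CST) and 441 bp (Abcam) upstream, inside H2AZ1-DT, and the H3.3, H4K16ac and weaker H3K79me2 summits there lay 446, 471 and 457 bp upstream. Summits of all 5 lists thus crowded a single site. Of the 300 bases of the promoter window, no base was covered by H2AZ CST or H4K16ac, 37 by H2AZ Abcam, 73 by H3.3 and 82 by H3K79me2, so most of the printed H2AZ1 letters lay between the upstream peaks and the gene.

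H3.3 and H3K79me2 were the signals over the body of H2AZ1. H3.3 peaks with summits 142 and 599 bp downstream of the start, at 17.0 and 15.3, brought the covered share of the gene to 39.3%, and 5.59% of protein-coding genes were covered more. H3K79me2 covered 93.7% of the gene, and 1.63% of genes were covered more. Past the gene, the window took in the start of DNAJB14, a chaperone gene that starts 3657 bp from the H2AZ1 start. A second group of summits of all 5 lists lay there, including the H3K79me2 peak of highest −log10 q near H2AZ1, at 254. The 7 annotated H2AZP pseudogenes, copies related to H2AZ1, had no peak of the variants or of H4K16ac over them, and 2 of the 7 had an H3K79me2 peak. Those 2, H2AZP4 and H2AZP3, had 6 and 12 H3K79me2 peaks within 5 kb. The share of other pseudogenes with a peak was not computed. No source used here says how reads that match several places were treated, so the signal over these copies is uncertain.

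H2AZ2 had the faintest start of the members with a peak in the H2AZ Abcam, H3.3 and H4K16ac lists. The gene lies at chromosome 7, 44826889 to 44848126, minus strand. Its annotated start used here, at 44848087, is within the annotated gene and 384 bp from the start of the divergent H2AZ2-DT. Its strongest start peaks had a −log10 q of 14.8 (CST) and 6.47 (Abcam) for H2A.Z. H3.3 was at 8.59, H4K16ac at 5.16 and H3K79me2 at 133. A stronger H2AZ CST peak at the start was found at 56% of all protein-coding genes, and a stronger H2AZ Abcam peak at 67.3%. The summits again fell on both sides. Upstream, inside H2AZ2-DT, they lay at 563 bp (H2AZ CST), 514 bp (H2AZ Abcam) and 557 bp (H3.3), with H4K16ac at 682 bp and H3K79me2 at 652 bp. Downstream they lay at 202 bp for H2AZ Abcam and 327 bp for H3.3. None of the 300 bases of its promoter window was covered by the variants or H4K16ac, and 230 were covered by H3K79me2. H3K79me2 began with a peak of 6822 bp and covered 49.3% of the gene, and its last summit lay 10.8 kb past the start, at 51.0% of the length.

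Genes were compared by the rank of their strongest peak within 5 kb and of their covered share in all 5 lists. By these 10 values (Euclidean distance between rank percentiles), H2AZ1 and H2AZ2 were not each other's nearest genes. For H2AZ1 the strongest H3.3 and H3K79me2 peaks, at 27.0 and 254, had their summits near the start of DNAJB14. The 2 genes also differ in length, at 2188 and 21238 bp. H2AZ2 was number 186 in order of likeness to H2AZ1, and H2AZ1 number 1374 in order of likeness to H2AZ2. The distance between them was 72.7, below the median distance of all genes from H2AZ1 (132) and from H2AZ2 (107). The protein-coding genes nearest to H2AZ1 were POLGARF, a reading frame within the POLG locus, TOMM6, a subunit of the mitochondrial import pore, and HOXD9, a homeobox factor, at distances of 20.6, 21.5 and 28.2. The median distance over all genes was 132. H2AZ2 was closest to RPL22L1, a ribosomal protein paralog, ARRDC3, an arrestin-like adaptor, and MYL12B, a myosin light chain, at 30.1, 30.9 and 32.4, with a median of 107. The H3K79me2 peak of these 3 genes reached 70.5, 70.7 and 212, and none had an H4K16ac peak within 5 kb. These distances describe 1 library per antibody.

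SRCAP, the ATPase that deposits H2A.Z, carried some of the highest-ranked peaks of the series, with their summits upstream of the gene. SRCAP (chromosome 16, 30699171 to 30741409, plus strand) starts 111 bp from the start of LOC730183, a long non-coding RNA gene on the other strand. The strongest H2A.Z peaks at the start had a −log10 q of 155 (CST) and 299 (Abcam). H3.3 stood at 179, H4K16ac at 121 and H3K79me2 at 671. These peaks ranked 33 of 52325 and 438 of 44634 for H2A.Z, and 24 of 72287, 3 of 76748 and 405 of 54476 for the other lists in turn. A stronger H2AZ CST peak within 5 kb was found at 0.200% of protein-coding genes, and a stronger H4K16ac peak at 0.0200%.

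The strongest signals of H2A.Z and H4K16ac at SRCAP stood on 2 neighbouring sites, both inside LOC730183. H2AZ CST summits lay 829 and 301 bp upstream, H2AZ Abcam summits 818 and 328 bp, and H4K16ac summits 828 and 337 bp. The order of strength differed between them. H2AZ CST was stronger at the far site, at 155 against 52.9 at the near one, and H2AZ Abcam likewise, at 299 against 152. H4K16ac was stronger at the near site, at 121 against 81.8 at the far one. Just inside SRCAP lay weaker peaks of H2AZ Abcam, at 7.73 with a summit 75 bp downstream, and of H3.3, at 25.7 and 74 bp. A single H3.3 peak of 1166 bp spanned both upstream sites, and an H3K79me2 peak of 4611 bp ran across the start into the gene. The printed SRCAP letters were covered over 93 of the 300 window bases by H2AZ CST and 222 by H2AZ Abcam. H3.3 covered 250, H4K16ac 113 and H3K79me2 all 300. No H2AZ CST peak overlapped the SRCAP gene itself.

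EP400, the ATPase of the TIP60 complex, had H2A.Z on both sides of its start. EP400 lies at chromosome 12, 131949942 to 132080460, plus strand. Its H2A.Z peaks at the start reached 49.4 (CST) and 119 (Abcam), with H3.3 at 60.4, H4K16ac at 7.12 and H3K79me2 at 473. H2AZ CST summits lay 402 bp upstream and 618 bp downstream, H2AZ Abcam had summits 352 bp upstream and 91 and 603 bp downstream, and H3.3 had them 420 bp upstream and 611 bp downstream. The upstream peak was the stronger for the H2A.Z antibodies and H3.3. For H4K16ac, whose summits lay 396 bp upstream and 569 bp downstream, the downstream peak was, at 7.12 against 4.75. H3K79me2 was also far stronger downstream, at 473 against 7.05.

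The window of EP400 also took in EP400P1, a transcribed pseudogene related to EP400, whose nearer end is 134341 bp from the EP400 start. Peaks of all 5 lists lay at that end. The H3K79me2 peak there was the strongest near EP400, at 695, and the H4K16ac peak reached 32.2, rank 409 of its list. Over the EP400 gene alone the highest values were 473 for H3K79me2 and 15.7 for H4K16ac. EP400P1 is a copy of part of EP400, and no source used here says how reads that match several places were treated, so the signal of each copy is uncertain.

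The subunits that the SRCAP and TIP60 complexes share, or that serve them, differed in how many signals they carried. VPS72, which binds the H2A.Z and H2B dimer, had H2A.Z and H3K79me2 alone. It lies at chromosome 1, 151176304 to 151190197, and the tables give no strand. The peaks sat at the end of higher coordinate, with a −log10 q of 43.4 for H2AZ CST, 31.3 for H2AZ Abcam and 86.1 for H3K79me2. Their summits lay 124, 99 and 93 bp inside the gene. No H3.3 and no H4K16ac peak was found within 5 kb, whereas within 10 kb both were, with H3.3 at 22.996 and H4K16ac at 4.92.

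ZNHIT1, a zinc finger subunit of the SRCAP complex, shared its upstream signals with a neighbouring gene. ZNHIT1 (chromosome 7, 101218165 to 101224190, plus strand) starts 584 bp from the start of PLOD3, a collagen-modifying enzyme gene on the other strand. Its strongest H2A.Z peaks near the start reached 57.5 (CST) and 219 (Abcam), beside H3.3 at 23.1, H4K16ac at 20.7 and H3K79me2 at 256. Their summits lay between 781 and 886 bp upstream, inside PLOD3. On the ZNHIT1 side, H2AZ CST reached 12.0 with a summit 221 bp downstream, H2AZ Abcam 2.31 at 96 bp and H3K79me2 28.7 at 418 bp. H3.3 and H4K16ac had a peak each near the far end of ZNHIT1, 5.55 and 5.54 kb from its start. H3K79me2 peaks covered 62.1% of the gene.

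YEATS4, a reader of acetylated histones in both complexes, had all 5 signals stacked over the first stretch of the gene. YEATS4 lies at chromosome 12, 69359743 to 69427072, plus strand. Its H2A.Z peaks had a −log10 q of 47.1 (CST) and 136 (Abcam). H3.3 was at 82.4, H4K16ac at 35.2 and H3K79me2 at 178. The summits lay 202, 157, 160, 194 and 176 bp downstream in the same order, and the 5 peaks began between 30 and 84 bp upstream. The last stretch of the printed YEATS4 letters therefore lay under all 5 lists. H4K16ac ranked 272 of 76748, and a stronger peak at the start was found at 1.06% of genes.

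KAT5, the acetyltransferase of the TIP60 complex, had the strongest H2AZ CST peak of the members, with H3K79me2 below the median of genes with a start peak. KAT5 lies at chromosome 11, 65712018 to 65719604, plus strand, and its annotated start used here is at 65712252, within the annotated gene. For H2A.Z the start peaks had a −log10 q of 196 (CST) and 292 (Abcam). H3.3 came to 45.0, H4K16ac to 9.72 and H3K79me2 to 96.1. The H2AZ CST peak ranked 6 of 52325 in its list. The H2A.Z summits lay 125 bp (CST) and 112 bp (Abcam) upstream of that start, and all 300 bases of the promoter window were covered by H2A.Z in both lists and by H3.3. Full cover by H2AZ CST was found for 21.6% of promoter windows with such a peak within 1 kb, and no cover, as at H2AZ1 and H2AZ2, for 16.2%. A second group of peaks at the far end of KAT5 lay at the start of RNASEH2C, a ribonuclease subunit gene on the other strand. There H3K79me2 reached 396 and H2AZ CST 33.3.

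ANP32E and INO80, linked to removal of H2A.Z, lay below the lower quartile of start peaks in the H2AZ CST list (19.2) and above that of the H2AZ Abcam list (49.01). H2AZ2 was also below the H2AZ CST quartile, at 14.8. Below the H2AZ Abcam quartile were H2AZ2, at 6.47, and VPS72, at 31.3. INO80C, ACTR8, ACTR5 and INO80E of the INO80 complex reached 148, 86.1, 65.9 and 64.4 at the start in the H2AZ CST list, above its upper quartile (53.6). The other genes of that complex examined here lay below that upper quartile. Among them NFRKB and YY1, at 16.9 and 6.17, were under the lower quartile, and MCRS1 had no H2AZ CST peak at the start. ANP32E (chromosome 1, 150218417 to 150236112, strand not in the tables) had, at 11.1, the lowest H2AZ CST value at the start among the members, and its strongest nearby peak reached 13.1. H2AZ Abcam reached 66.5 and H3.3 70.3 at the end of higher coordinate, where H4K16ac was at 8.13 and H3K79me2 at 381. The summits of the strongest H2AZ Abcam, H3.3 and H3K79me2 peaks lay 1366, 1355 and 1365 bp inside the gene. INO80 (chromosome 15, 40978880 to 41116280, minus strand), the ATPase of its complex, reached 18.3 (CST) and 57.1 (Abcam) for H2A.Z, and H3.3 stood at 9.00, H4K16ac at 12.7 and H3K79me2 at 335. All 5 summits lay downstream of its start, between 424 and 568 bp, and each variant or H4K16ac list had 1 peak within the gene or 5 kb of it.

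**Figure D3:**
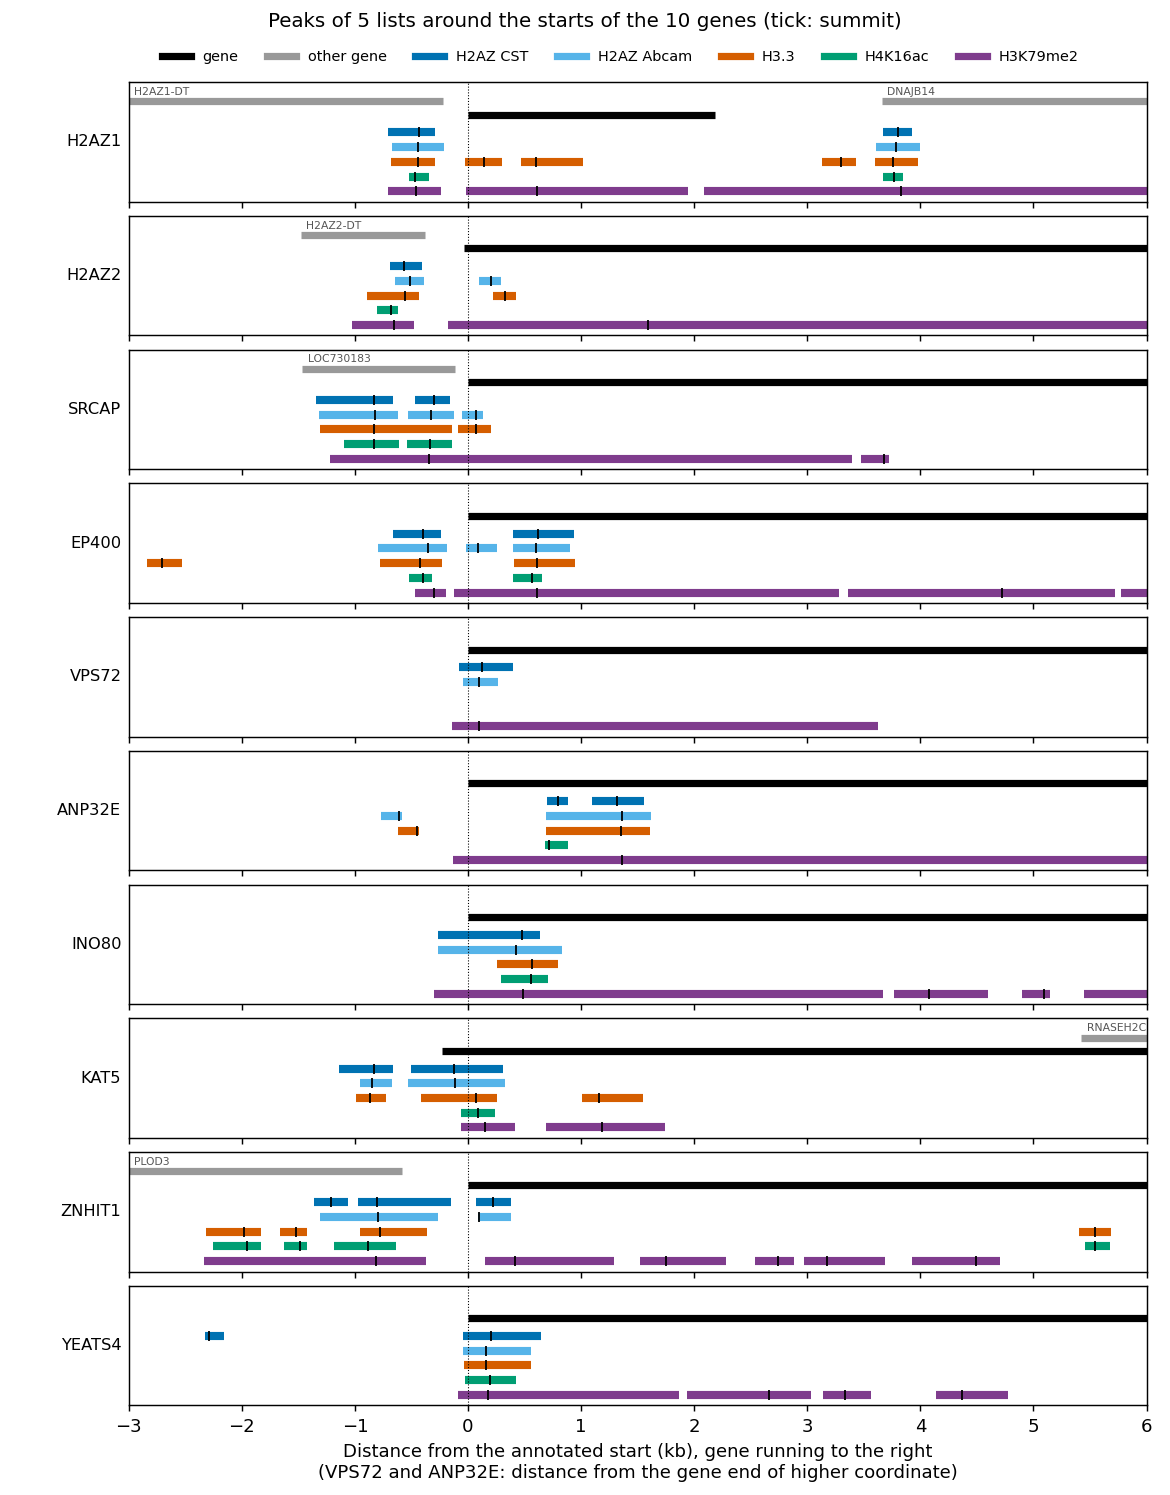
Peaks (bars) and summits (ticks) of the 5 lists from 3 kb before to 6 kb after the start of each member, with the gene in black and other annotated genes in grey (VPS72 and ANP32E from their end of higher coordinate). The strongest H2A.Z summits of H2AZ1, SRCAP and ZNHIT1 lie left of the start inside the neighbouring gene, whereas those of YEATS4 and INO80 lie to its right.

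Where their peaks overlapped, the antibodies to H2A.Z mostly placed their summits at nearly the same positions. Near the members there were 21 H2AZ CST peaks and 23 H2AZ Abcam peaks, and 20 of the 21 CST peaks overlapped an Abcam peak (95.2%, exact interval 76.2 to 99.9). Across all H2AZ CST peaks the share was 72.6%. The 20 overlapping pairs had summits a median of 29.5 bp apart, 14 of them were within 50 bp, and the widest gap was 567 bp. H2AZ Abcam peaks without a CST partner lay at SRCAP, EP400, ANP32E and H2AZ2, where the unpaired peak was the strongest of that list, at 6.47. The one H2AZ CST peak without a partner was the weak one at 5.29, 2.29 kb upstream of YEATS4. H3.3 overlapped 17 of the 21 CST peaks (81.0%, 58.1 to 94.6), H4K16ac 15 (71.4%, 47.8 to 88.7) and H3K79me2 18 (85.7%, 63.7 to 97.0). Over all H2AZ CST peaks these shares were 52.8%, 42.3% and 32.8%. The sets differ in place. Of the 21 CST peaks near the members, 14 lay at a member's start and 5 at another gene's start or end, whereas the full list was not restricted to starts. Shares for CST peaks at starts alone were not computed. Intervals are Clopper-Pearson at 95% and cover counting error only. With at least 50% of the CST peak covered, H4K16ac kept 28.6%.

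Inside the longer genes the signals parted. H3K79me2 stayed near the start in INO80, EP400 and YEATS4. Its last summit lay 17.1 kb into INO80, or 12.5% of the gene, 28.5 kb into EP400, or 21.8%, and 4.37 kb into YEATS4, or 6.48%. No base of these genes past 30 kb was covered by H3K79me2. H2A.Z had no summit more than 1 kb inside EP400, INO80, YEATS4 or SRCAP in either list, which was common. Of 1073 protein-coding genes of 100 to 150 kb with an annotated start, 54.5% had none in the CST list and 57.8% none in the Abcam list, and of 2775 such genes of 30 to 60 kb, 67.7% and 69.8% had none.

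H3.3 and H4K16ac marked the later part of EP400 and SRCAP but not INO80. EP400 held 20 H4K16ac and 7 H3.3 summits more than 1 kb from either end, and 14 and 5 of these lay in its last 40%. The −log10 q of these H4K16ac peaks ran from 3.40 to 15.7. H3.3 overlapped 5 of the 20 H4K16ac peaks and H3K79me2 overlapped 1. INO80, of similar length, had none of either. Among the 1073 genes of 100 to 150 kb, 53.9% had no H4K16ac summit inside and 7.55% had at least 20. For H3.3, 52.4% had none and 10.6% had at least 7. By covered share EP400 stood out less. H4K16ac covered 4.48% of it, and 26.1% of all protein-coding genes were covered more. H3.3 covered 2.01%, with 37.2% of genes covered more. Both length ranges were chosen as references after the values were seen.

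SRCAP held 17 H3K79me2, 11 H3.3 and 4 H4K16ac summits more than 1 kb from either end. At least 17 H3K79me2 summits were found in 1.37% of the 2775 genes of 30 to 60 kb, at least 11 of H3.3 in 8.86% and at least 4 of H4K16ac in 21.3%. Unlike in EP400, some H3K79me2 summits of SRCAP lay near the far end of the gene, with the last at 40.5 kb (95.8% of the gene). None lay between those at 28.2 kb and 39.2 kb, and the last peak was within 1 kb of an end of TMEM265. The last H3.3 and H4K16ac summits inside lay far along both genes, at 91.7% and 97.7% of EP400 and at 95.5% of SRCAP for both lists. Each of the 4 H4K16ac peaks inside SRCAP overlapped an H3.3 peak, and 3 overlapped H3K79me2. The strongest H3.3 peak inside, at 46.1, had its summit 25.7 kb from the start, where H4K16ac reached 15.6 and H3K79me2 35.4. Towards the far end, which TMEM265 overlaps, an H3.3 peak 40.3 kb from the start reached 42.3.

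**Figure D4:**
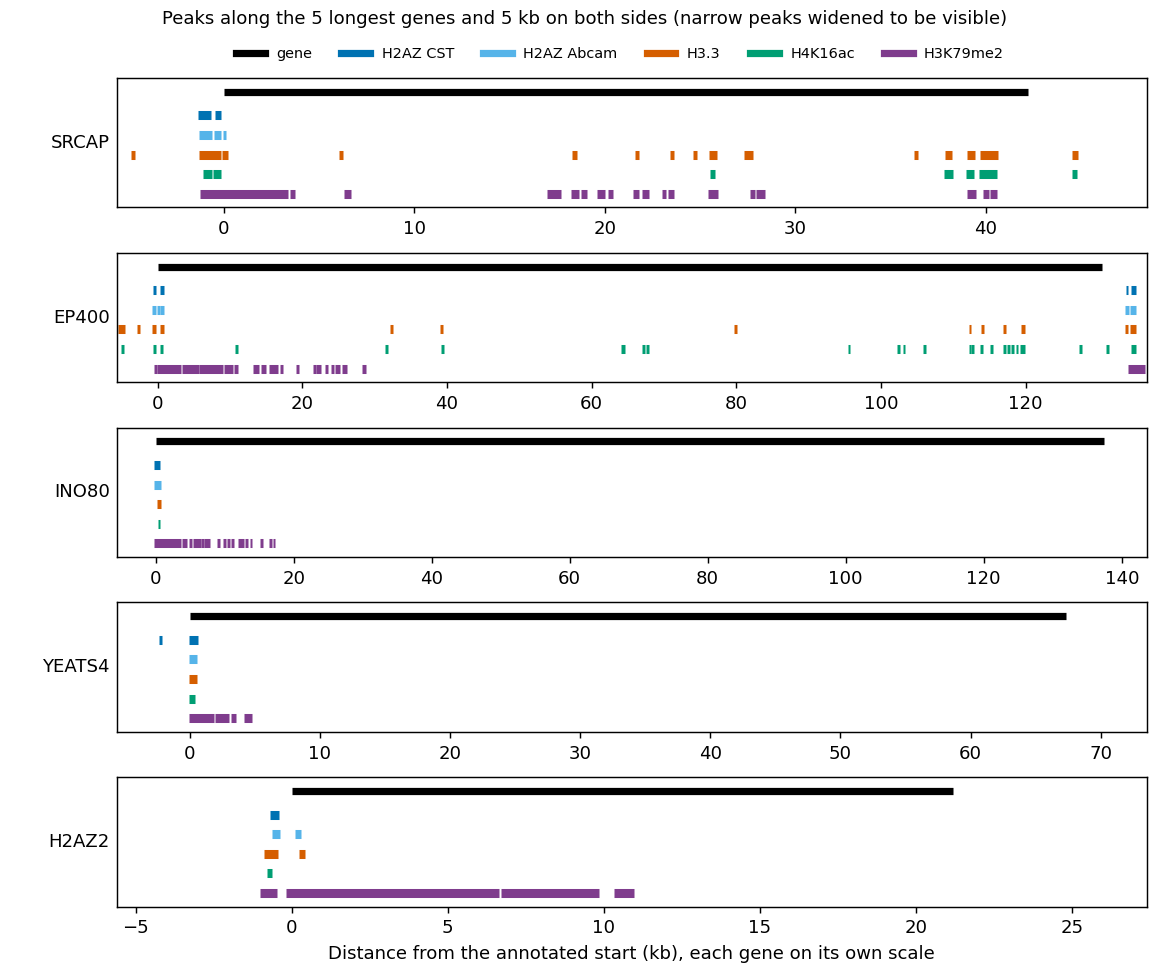
Peaks of the 5 lists along the 5 longest members and 5 kb on both sides, as distance from the start (kb), each gene on its own scale, with narrow peaks drawn wider than they are. The last H3K79me2 summit lies at 28.5 kb in EP400 and 17.1 kb in INO80, and the H4K16ac marks crowd the last part of EP400.

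Over all members, peaks covered a median of 0.713% (CST) and 0.881% (Abcam) of the gene in the H2A.Z lists, where all protein-coding genes had 0.993% and 1.15%. The median was 3.40% for H3.3, against 0.783% over all genes, 0.892% for H4K16ac, against 0.442%, and 29.9% for H3K79me2, against 1.19%. An H3K79me2 peak lay over 57.1% of all genes, and among genes with an H3K79me2 peak at the start the median was 11.7%, which 8 of the 10 members exceeded. Set against genes with a start peak of the same list, the members were not higher in H4K16ac, where those genes had a median of 3.12% and 4 of 10 members exceeded it. For H3.3 that median was 2.70%, exceeded by 5 of 10, and for H2A.Z it was 1.81% (CST) and 2.03% (Abcam), exceeded by 4 and 3. The members' H3K79me2 shares ran from 5.99% at YEATS4 to 93.7% at H2AZ1. ZNHIT1, of 6026 bp, was covered over 62.1%, and the longest member, INO80, of 137401 bp, over 7.65%.

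A further 28 genes of the exchange complexes, their actin-related and RuvB-like subunits among them, were also marked. Within the gene or 5 kb of it, 28 of 28 had H2AZ CST, 28 H2AZ Abcam, 26 H3.3, 25 H4K16ac and 28 H3K79me2, to be read against the 79.6%, 79.7%, 72.4%, 66.9% and 61.2% of all genes. At the start the counts were 26, 25, 23, 19 and 28, against 68.3%, 68.8%, 62%, 51.1% and 54.1%, and all 5 lists met at the start of 17 of the 28, against 35.4%. BRD8, a bromodomain subunit of the TIP60 complex, lacked H3.3 and H4K16ac, the same lists as VPS72. NFRKB, a subunit of the INO80 complex, lacked H3.3, and the INO80 complex genes ACTR5 and INO80C lacked H4K16ac.

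The strongest peaks near these 28 genes belonged to several complexes. INO80C led H2AZ CST at 148, and INO80E, another subunit of that complex, led H2AZ Abcam at 316. UCHL5, a deubiquitinase shared with the proteasome, led H3.3 at 212. EPC1 and MRGBP, subunits of the TIP60 complex, led H4K16ac at 61.9 and H3K79me2 at 722. The peaks of INO80E, EPC1 and MRGBP lay more than 1 kb from the start, where their values were 200.1 for H2AZ Abcam, no H4K16ac peak, and 121 for H3K79me2. INO80C combined its strong H2A.Z with an H3K79me2 peak of 4.35 at the start.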

How the data were processed

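ChIP-seq peak lists of 5 antibody libraries were used, 1 library each. The build hg38 and the tools MACS2 2.1.0, Bowtie 1.1.2, Trimmomatic 0.33 and bcl2fastq 2.17 are named in the submitters' processing notes. No source used here gives settings, read depth or the use of the input. For each peak the deposited files hold the authors' −log10 q-value, −log10 p-value, fold enrichment (a linear ratio), summit offset and display score. Only the −log10 q was used, to rank or filter peaks within a list, and the smallest −log10 q was 2.00 to 2.06.

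Peaks on chromosomes 1 to 22 and X were overlapped (at least 1 bp) with genes of a RefSeq table of GRCh38.p14, the assembly of hg38. All 10 members and 28 other genes matched by symbol. Starts and strands came from RefSeq promoter windows, known for 15812 of 19974 protein-coding genes. The tables hold no exons, introns or untranslated regions. VPS72 and ANP32E were measured from the end of higher coordinate, chosen after seeing their peaks. No values were tested, since each antibody had 1 library. Overlap functions were tested on simulated data (2000 windows, 0 mismatches). Python 3.11.15, pandas 2.3.3 and scipy 1.17.1 were used.

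The members and lists were chosen with earlier results of these data known. Named genes were all members, other exchange genes that lacked a list within 5 kb or led one, and genes within 5 kb of a member on which a result turns. The 3 genes most like H2AZ1 and H2AZ2 were also named, as were INO80 complex genes outside the H2AZ CST quartiles at the start or without such a peak. As a check of the cell label, H3K79me2 lay over 5 of 5 genes typical of embryonic kidney lines (VIM, PAX2, LHX1, SALL1 and WT1) and 0 of 5 of other tissues (PTPRC, CD3E, ALB, SFTPC and INS), against 57.1% of all genes. It covered 38.3% of VIM and 55.6% of SALL1, but only 0.306% of PAX2, 3.13% of LHX1 and 3.45% of WT1, so the check is weak. Alternatives were other windows, a −log10 q of at least 5, the 10000 strongest peaks, summits in place of overlaps and a 50% overlap.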

Additional observations from a re-analysis of the deposited data

How the results depend on the processing

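No paired analysis was possible because each antibody had 1 library and no comparison rests on a test. Read depth is unknown, and its part in a missing peak, such as H3.3 at VPS72, was not tested. With the 10000 strongest peaks of each list, members with a peak within 5 kb numbered 6 in each H2A.Z list, 5 in H3.3 and 4 in H4K16ac, against 45.5%, 47.4%, 35.6% and 26.6% of all genes. At the start they numbered 6, 6, 5 and 3. The other exchange genes with H3.3 then numbered 16 and those with H4K16ac 13. H3K79me2 stayed at 10 members in both windows. The median covered share became 0% for both H2A.Z lists, H3.3 and H4K16ac and 15.1% for H3K79me2. With 5 kb on both sides counted as part of the gene it was 1.96% (CST) and 2.15% (Abcam) for H2A.Z, with H3.3 at 4.13%, H4K16ac at 1.87% and H3K79me2 at 21.7%. With a −log10 q of at least 5 it was 0.716% for H2AZ Abcam and 3.32% for H3.3. With at least 50% of the H2AZ CST peak covered, H4K16ac overlapped 28.6% of the CST peaks near members. Other windows, a −log10 q of at least 5 and summits in place of overlaps kept every count of genes within 1.5 times its value. With the gene alone, 7 members had an H2AZ CST peak, and H2AZ1, H2AZ2 and SRCAP had none. Restricting the background to the 16319 genes between the shortest and longest member raised it to 81.4% for H2AZ CST and 63.6% for H3K79me2 within 5 kb.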

Other observations

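Among the 8 members with a known start, 4 have an annotated start on the other strand within 1 kb upstream (H2AZ1, H2AZ2, SRCAP and ZNHIT1). In the H2AZ CST list the strongest summit within 1 kb of the start lay upstream in all 4 of these, at 437, 563, 829 and 807 bp. Of the other 4, it lay upstream in EP400 and KAT5, at 402 and 125 bp, and downstream in INO80 and YEATS4, at 475 and 202 bp. H2AZ Abcam gave the same sides except at H2AZ2, whose strongest summit lay 202 bp downstream. Across all protein-coding genes with a summit in that window, the strongest H2AZ CST summit lay upstream in 51.2% of 2677 genes with such a divergent start (exact interval 49.3 to 53.1) and in 36.4% of 8191 without one (35.3 to 37.4). For H2AZ Abcam the shares were 48.4% of 2676 genes (46.5 to 50.3) and 31.9% of 8260 (30.9 to 32.9). This split was chosen after the members' values were seen. Neighbouring genes can share a peak, so the genes are not independent, and the intervals cover counting error only.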
